A study of Mus musculus with 9 samples.

Results

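The genes described here copy DNA during S phase or prepare cells for it. They are 42 genes, taken as every probe that the array files name by one of these symbols or by an older alias such as Cdc45l for Cdc45. They were read by 62 of the 41174 non-control probes of the array. All 42 had at least 1 probe well above background on every array of at least 1 group and so passed the filter on dim probes, which kept 12000 genes in all.

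The study hybridised 9 RNA samples to one-colour Agilent arrays, 3 for each of 3 groups of mouse pro-B cell cultures. All groups were C57Bl/6 cells transformed with Abelson murine leukaemia virus (A-MuLV), a virus whose tyrosine kinase keeps early B cells dividing, and all carried the conditional allele Ebf1fl/fl and RERTCre, a Cre recombinase that tamoxifen switches on. Mock cells were taken through a mock transduction and harvested 4 days after 2 µM 4-hydroxytamoxifen, when cell death had not yet been seen. EBF1wt and EBF1ΔC cells carried a retrovirus (pmys with IRES-GFP) for full-length EBF1 or for EBF1 without its C-terminal domain, received the same 2 µM 4-hydroxytamoxifen 24 h after transduction, were sorted for GFP 5 days after that treatment, and were used more than 2 weeks later. EBF1 is a transcription factor that B-lineage cells need. Nothing in the labels ties the replicates of a group to independent cultures, and so each p-value reflects no more than the spread among these arrays, possibly technical. For EBF1wt replicate 3, tamoxifen is named in the description but missing from the source name.

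The Mock arrays shared 2 slides and 1 scan day with no other group, and Mock also differed from both other groups in transduction, sorting and time after tamoxifen, so none of these can be told apart from EBF1 in a comparison with Mock. In RNA from bulk cells, fewer cells in S phase and less RNA of these genes per cell cannot be told apart either. On the second principal component EBF1wt replicate 2 scored 46.5 while its group mates scored 12.4 and 15.2, and limma gave this array the smallest weight of the 9 (0.367). The Ebf1 mRNA probe was 3.05-fold higher in EBF1wt and 5.08-fold higher in EBF1ΔC than in Mock, where it was above background on 3 of 3 arrays. The limma adjusted p for EBF1wt, taken over all kept probes, was 4.01e-05. The position of the conditional deletion is not given in the sources used here, so this probe does not check it. A second Ebf1 probe, for a cDNA clone, was above background in Mock only.

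DNA replication starts in G1, when the origin recognition complex, Cdc6 and Cdt1 load the ring-shaped MCM helicase onto DNA. In S phase Cdc45 and the GINS complex turn MCM into an active helicase, primase and DNA polymerase alpha lay down primers, and DNA polymerases delta and epsilon extend them with the sliding clamp Pcna, which replication factor C loads. E2F transcription factors, released from the retinoblastoma protein as cyclin E and its kinase act, switch on most of these genes at the G1 to S transition, while E2f7 and E2f8 repress them later in S phase. Pro-B cells divide quickly in response to interleukin 7, and Abelson-transformed lines divide without it.

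Promoters are shown first, because E2F sites are what this set of genes is known to share. RefSeq promoter windows (build GRCm38.p6, 250 bases before to 50 after the start) were found for 34 of the 42 genes; 6 of the 34 have more than 1 window, and a gene was counted if any window matched. One of the letters TTTGGCGC, TTTCGCGC, TTTCCCGC or TTTGCCGC on either strand, the core of E2F sites, stood in 14 of the 34 genes (41.2%), against 2.60% of 27025 genes with a window. Matches that overlap through a shared GCGC were counted separately. These 7 windows are each the 160 bases before the start, written 5′ to 3′ in the direction of the gene. They belong to the MCM genes with overlapping matches and to the called genes with a window that differed most from Mock (Pola1, Rfc3, E2f8). The others belong to 2 of the 3 windowed genes that were lower in EBF1wt (Orc1, E2f3). Ccne1, the third lower gene, holds none of these letters, and neither does another window of E2f3. Prim2 has no window. Capitals mark the E2F letters.

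Mcm5, chr8:75109349-75109508, plus strand: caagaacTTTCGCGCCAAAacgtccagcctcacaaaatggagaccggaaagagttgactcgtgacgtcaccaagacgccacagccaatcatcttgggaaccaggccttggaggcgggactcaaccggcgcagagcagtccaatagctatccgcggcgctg
Mcm6, chr1:128359706-128359865, minus strand: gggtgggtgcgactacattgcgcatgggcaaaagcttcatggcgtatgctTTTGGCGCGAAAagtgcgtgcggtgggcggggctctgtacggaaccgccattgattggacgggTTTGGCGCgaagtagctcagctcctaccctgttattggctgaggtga
Pola1, chrX:93632156-93632315, minus strand: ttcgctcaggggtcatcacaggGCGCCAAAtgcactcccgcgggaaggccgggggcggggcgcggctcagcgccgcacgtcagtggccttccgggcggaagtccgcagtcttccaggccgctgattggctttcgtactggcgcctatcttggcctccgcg
Rfc3, chr5:151651209-151651368, minus strand: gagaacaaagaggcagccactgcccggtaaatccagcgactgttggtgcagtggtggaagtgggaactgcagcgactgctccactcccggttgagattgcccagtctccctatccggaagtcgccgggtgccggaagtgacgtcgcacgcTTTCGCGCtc
Orc1, chr4:108579294-108579453, plus strand: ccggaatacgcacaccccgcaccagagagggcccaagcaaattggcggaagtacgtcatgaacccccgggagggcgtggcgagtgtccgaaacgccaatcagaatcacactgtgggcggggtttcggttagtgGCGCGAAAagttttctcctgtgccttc
E2f3, chr13:29986064-29986223, minus strand: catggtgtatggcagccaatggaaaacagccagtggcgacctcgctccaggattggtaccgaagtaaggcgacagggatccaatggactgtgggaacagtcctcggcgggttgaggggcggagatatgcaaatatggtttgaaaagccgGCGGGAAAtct
E2f8, chr7:48881597-48881756, minus strand: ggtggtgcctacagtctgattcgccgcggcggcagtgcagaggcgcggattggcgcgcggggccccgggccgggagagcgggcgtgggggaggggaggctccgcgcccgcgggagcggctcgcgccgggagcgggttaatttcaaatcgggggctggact

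The windows of Mcm5 and Mcm6 hold pairs of overlapping matches, and E2f8 holds none of these letters in its whole window. Matches stood in 10 of 21 windowed genes that were higher in EBF1wt than in Mock, in 2 of 10 that were not called and in 2 of 3 that were lower, so genes with and without the letters are found in each class. CCAAT, the letters bound by NF-Y, stood in 22 of the 34 genes (64.7%) against 41.1% of all genes. TTTGAA, the cell cycle homology region of G2 and M genes, stood in 6 of 34 (17.6%) against 20.2%. The palindromic core of EBF1 sites stood in 1 of 34, Pola1, or 2.94% against 1.06%. These counts describe letters in a window and were not tested.

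Most of the replication genes were higher in cells with full-length EBF1 than in Mock cells. Of the 42, 26 were higher, 5 lower and 11 not called in EBF1wt, with a median difference of 0.49 on the log2 scale. A call is a Benjamini-Hochberg adjusted p under 0.05 over 12000 genes in limma. Among all genes 66.4% were called, 39.4% higher and 26.9% lower, with a median difference of 0.12, so the share of members that was higher (61.9%) is to be read against a background in which most genes moved. In 29 members all EBF1wt arrays lay above all Mock arrays, and in 5 all lay below, against 42.9% and 29.6% of all genes (72.4% together). Only Pola1, Prim2, Rfc3 and E2f8 rose by 2-fold or more, which is 9.52% of members beside 6.6% of all genes, and 0 members were called lower by that much, beside 12.8% of all genes (19.4% in either direction). Rfc5 read -3.69 through 1 spot and was not called.

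EBF1ΔC cells gave counts of the same order. There 27 members were higher, 4 lower and 11 not called, with a median difference of 0.41, beside 37.4% higher, 26.7% lower (64.1% together) and a median of 0.10 among all genes. Prim2, Rfc3, Tyms and E2f8 rose by 2-fold or more and 0 were called lower by that much, beside 6.27% and 11.8% of all genes (18.1% together). Groups did not overlap in 27 members that were higher and 5 that were lower, against 41.5% and 30.2% of all genes (71.7% together). Both comparisons use the same 3 Mock arrays, so their values below are given side by side and are not independent.

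The background depended on signal strength and on the kind of probe. Among kept probes for RefSeq mRNAs with a mean level at or above the 75th percentile of the array, 50.8% were higher in EBF1wt than in Mock (median difference 0.27), and of the 39 member probes in this class 28 were higher (71.8%, median 0.55). Among RefSeq mRNA probes below that level 29.2% were higher and 33.8% lower, and of the 11 member probes there 1 was higher and 4 lower (median -0.01). Among probes for other records and below that level, 61.0% were lower (median -0.92), and so were 3 of 3 member probes (median -1.79). Scaling to the median of each array in place of the 75th percentile raised the median difference of all genes to 0.82 in EBF1wt and 0.65 in EBF1ΔC, and turned the split of all called genes from 4731 higher and 3233 lower to 8207 and 1208 in EBF1wt, and from 4493 and 3202 to 7287 and 1295 in EBF1ΔC. Under it 37 members were higher in EBF1wt and 34 in EBF1ΔC, and 0 were lower in either. In EBF1wt, Mcm10, Orc6, Cdc6, Pole, Rpa1, Rrm2 and Ccne2 were called higher under it with differences below 0.82, the median of all genes. Such a scaling shifts every gene of an array alike, so the gap between the median of the members and that of all genes, 0.37 in EBF1wt and 0.31 in EBF1ΔC, cannot change with it. In EBF1wt that gap was 0.18 to 0.20 with quantile normalization, with normexp and quantile normalization, or with the authors' values. In EBF1ΔC it was 0.11 to 0.16 under these 3.

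**Figure D1:**
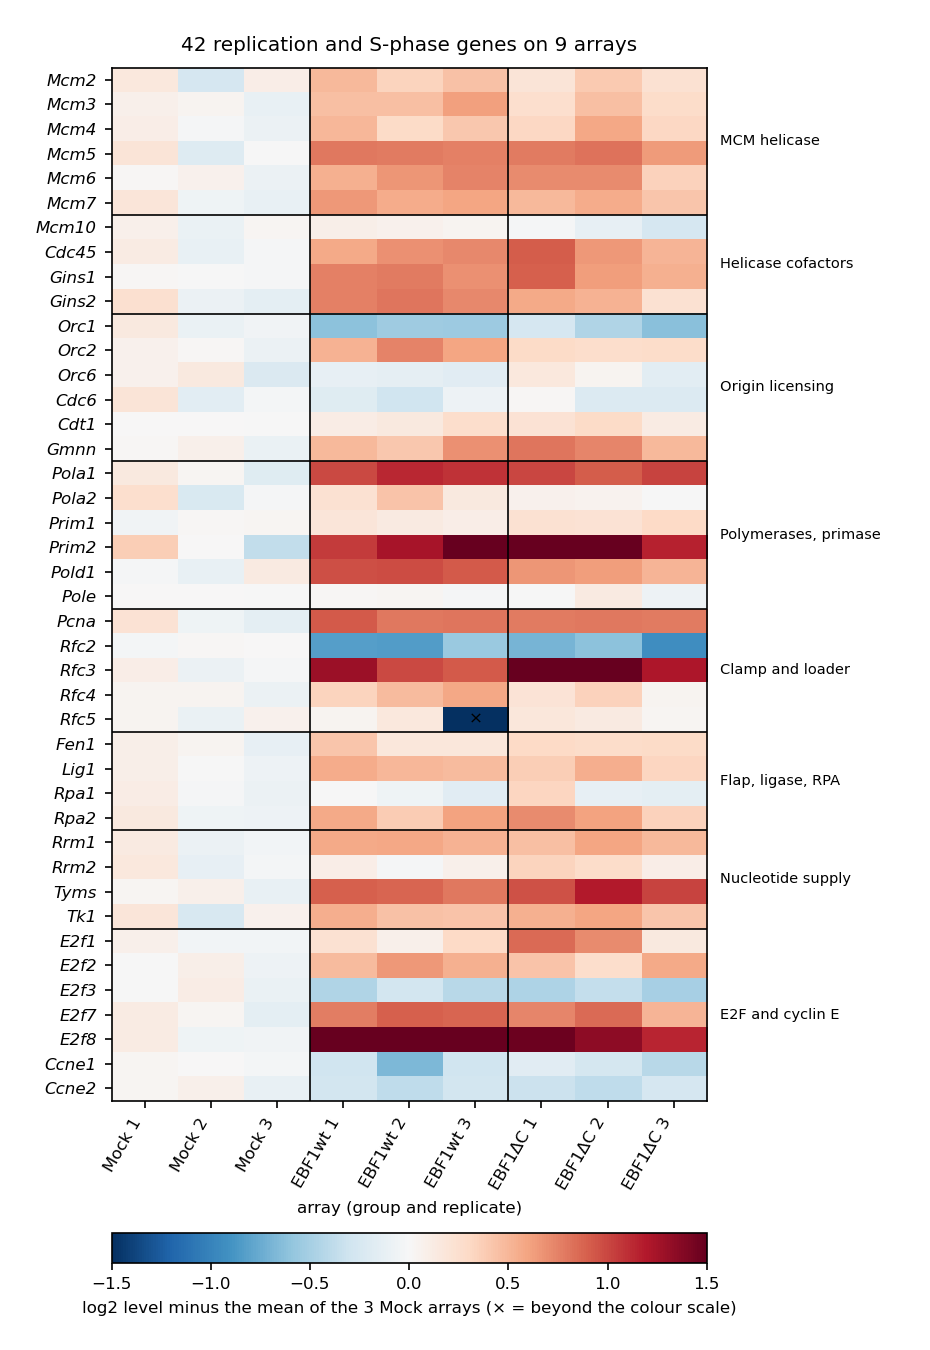
Colour gives the log2 level of each of the 42 genes on each of the 9 arrays minus the mean of the 3 Mock arrays; rows are grouped by role and columns by group and replicate. Most rows are red on all 6 arrays with EBF1, Orc1, Rfc2, E2f3, Ccne1 and Ccne2 are blue, and the cross marks the Rfc5 spot at background on EBF1wt replicate 3.

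The MCM helicase was higher as a whole. All 6 subunits were called higher in EBF1wt, by 0.40 (Mcm4) to 0.77 (Mcm5), and 5 of 6 in EBF1ΔC, by 0.33 (Mcm3) to 0.74 (Mcm5). Levels here are log2 of the signal relative to the 75th percentile of the array, and they are compared between arrays but not between genes, whose probes differ. Mcm5 read 4.41, 4.01 and 4.21 on the Mock arrays, 5.003, 4.99 and 4.96 on the EBF1wt arrays, and 4.99, 5.03 and 4.85 on the EBF1ΔC arrays. Every array with EBF1 lay above every Mock array. The difference was 0.77 ± 0.11 (SE) in EBF1wt (1.71-fold, adjusted p = 0.000315) and 0.74 ± 0.11 in EBF1ΔC (1.68-fold, adjusted p = 0.000413).

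Mcm2, another subunit of the ring and a common marker of cycling cells, read 3.46, 3.04 and 3.39 in Mock, 3.78, 3.63 and 3.74 in EBF1wt, and 3.50, 3.69 and 3.52 in EBF1ΔC. The Mock arrays spread widely for this gene, with replicate 2 the lowest. It was 0.42 higher in EBF1wt (adjusted p = 0.013) and passed no threshold in EBF1ΔC (0.27, adjusted p = 0.0721), where 6 alternatives called it higher: normexp (0.28), the authors' values (0.28), trended moderation (0.27), array weights (0.33), scaling to the median (0.82) and leaving out Mock replicate 1 (0.35). Mcm5 and Mcm7 kept their calls in both comparisons under all 23 alternatives, including every array left out in turn. Mcm3, Mcm4 and Mcm6 lost theirs in EBF1wt with normexp (0.16, 0.20 and 0.18) and with the authors' values (0.18, 0.19 and 0.13), and Mcm2 and Mcm4 with quantile normalization (0.22 and 0.14). In EBF1ΔC, Mcm3 was -0.03 with normexp and with the authors' values and lost its call with quantile normalization (0.12). Mcm4 (0.17, 0.18 and 0.16) and Mcm6 (0.06, 0.23 and 0.09) lost their calls there with normexp, quantile normalization and the authors' values.

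Of the factors that activate the helicase, Cdc45, Gins1 and Gins2 were higher and Mcm10 was not called. Gins2, a subunit of the GINS complex, read 1.55, 1.22 and 1.16 in Mock, 2.07, 2.11 and 2.04 in EBF1wt, and 1.87, 1.84 and 1.54 in EBF1ΔC. The EBF1wt arrays lay above both other groups, and EBF1ΔC replicate 3 lay within the Mock range. It was 0.76 ± 0.13 higher in EBF1wt (adjusted p = 0.000896) and 0.44 ± 0.13 higher in EBF1ΔC (adjusted p = 0.0149). The EBF1ΔC call was lost with normexp (0.14), with the authors' values (0.14), and without Mock replicate 2 (0.39) or 3 (0.36) or EBF1ΔC replicate 1 (0.38) or 2 (0.40). Gins1 (0.74 and 0.68) and Cdc45 (0.66 and 0.69) kept their calls under all 23 alternatives in EBF1wt and in EBF1ΔC. Mcm10, which helps to start the helicase, gave 0.06 in EBF1wt and -0.13 in EBF1ΔC, and in EBF1ΔC it was called lower with normexp (-0.33), with quantile normalization (-0.32) and with the authors' values (-0.31). With scaling to the median Mcm10 was called higher in EBF1wt (0.77), though below the median of all genes under that scaling (0.82).

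Origin licensing genes were mixed. Orc2, a subunit of the origin recognition complex, and Gmnn, which holds Cdt1 back after origins have fired, were higher in both comparisons, although Orc2 in EBF1ΔC was at -0.020 with normexp and -0.0084 with the authors' values. Orc1, the largest subunit of the complex, was lower, and Orc6 and Cdc6 were not called. Gmnn read 4.79, 4.85 and 4.68 in Mock, 5.25, 5.18 and 5.46 in EBF1wt, and 5.57, 5.50 and 5.26 in EBF1ΔC. All arrays with EBF1 lay above Mock, by 0.52 ± 0.11 in EBF1wt (adjusted p = 0.00303) and 0.67 ± 0.11 in EBF1ΔC (1.59-fold, adjusted p = 0.000886), and both calls held under all 23 alternatives.

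Orc1 is one of 4 lower members, with Rfc2, E2f3 and Ccne2, that are given by array because of their values. It read -0.97, -1.21 and -1.16 in Mock, -1.73, -1.64 and -1.65 in EBF1wt, and -1.36, -1.56 and -1.74 in EBF1ΔC. The groups with EBF1 lay below Mock, by 0.56 (a difference of -0.56 ± 0.11, adjusted p = 0.00208) in EBF1wt and -0.44 ± 0.11 (adjusted p = 0.00719) in EBF1ΔC, but with scaling to the median the differences were 0.14 and 0.10, below the median of all genes. Its call was also lost with normexp (-0.25 and -0.16) and with the authors' values (-0.22 and -0.14), and in EBF1ΔC with quantile normalization (-0.28). Cdc6 gave -0.19 and -0.13 and Orc6 -0.14 and 0.01, and neither was called; both were called higher in EBF1wt with scaling to the median (0.52 and 0.57), and Orc6 lower with quantile normalization (-0.36). A second Cdc6 probe was called higher in EBF1ΔC (0.46, adjusted p = 0.00878). Cdt1, the loader of MCM, gave 0.18 in EBF1wt (adjusted p = 0.0640) and 0.21 in EBF1ΔC (adjusted p = 0.0367), and only the second was called. All arrays with EBF1 lay above Mock, and EBF1ΔC minus EBF1wt was 0.03 (adjusted p = 0.835). In EBF1wt Cdt1 was called higher with trended moderation (0.18), array weights (0.18) and scaling to the median (0.88). The EBF1ΔC call was lost without any 1 Mock array or without EBF1ΔC replicate 1 or 2 (0.17 to 0.21). It was also lost without the filter on dim probes (0.21), with the 2 groups fitted alone (0.21) and with the replicate block (0.21), and with normexp the difference was -0.12.

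**Figure D2:**
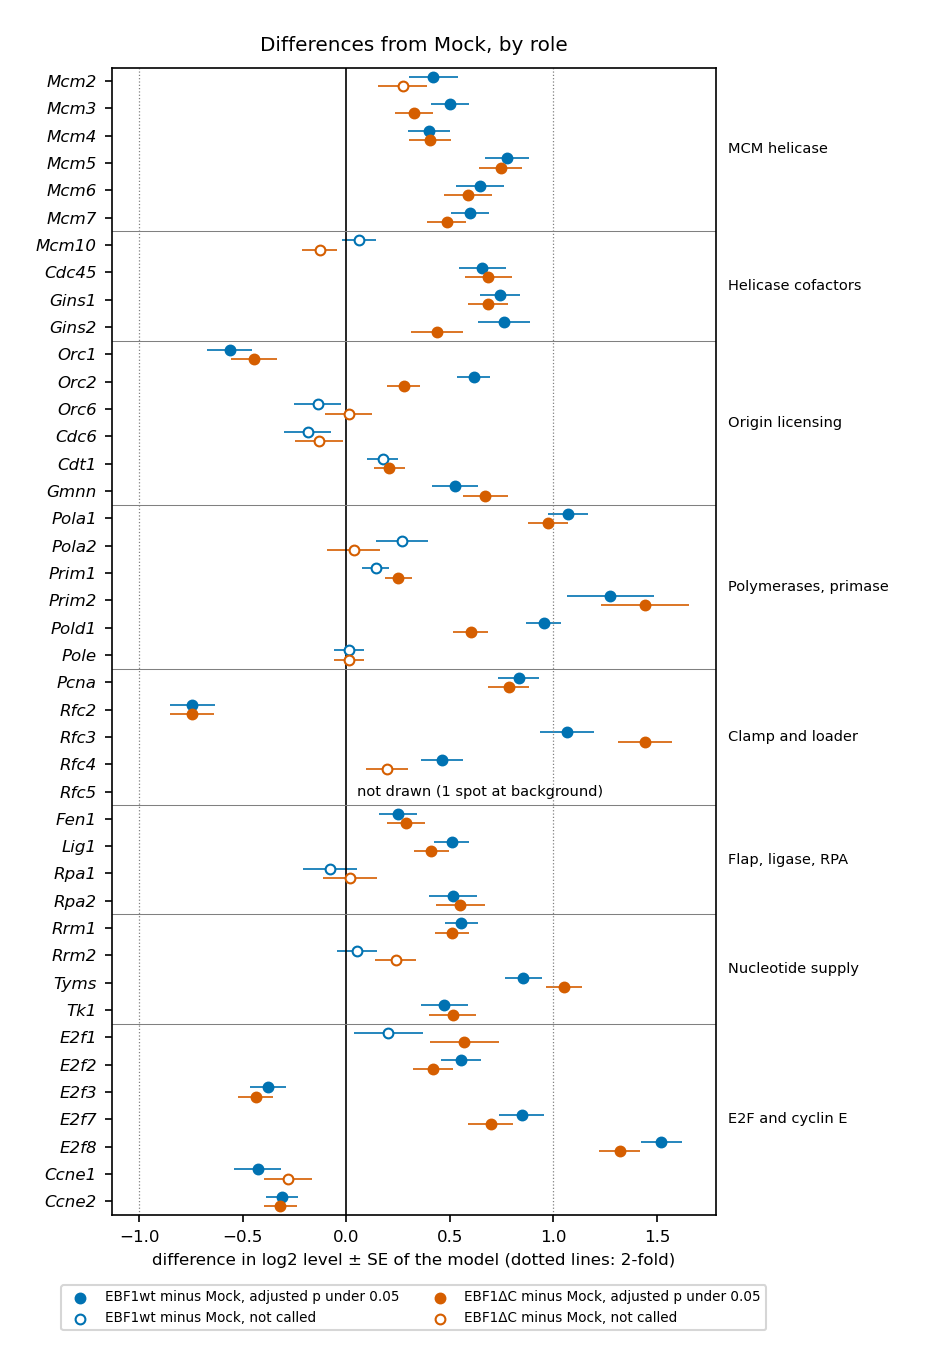
Points give the difference in log2 level from Mock with the SE of the model, blue for EBF1wt and orange for EBF1ΔC, filled where the adjusted p was under 0.05; dotted lines mark 2-fold. Prim2, Rfc3 and E2f8 lie beyond 2-fold in both comparisons, Pola1 in EBF1wt and Tyms in EBF1ΔC, Rfc5 is not drawn, and no drawn gene lies beyond 2-fold on the left.

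Primer synthesis was split between subunits. Pola1, the catalytic subunit of DNA polymerase alpha, read 1.94, 1.83 and 1.61 in Mock, 2.79, 2.93 and 2.87 in EBF1wt, and 2.79, 2.70 and 2.81 in EBF1ΔC. It rose by 1.07 ± 0.10 in EBF1wt (2.10-fold, adjusted p = 3.56e-05) and by 0.98 ± 0.10 in EBF1ΔC (1.97-fold, adjusted p = 6.04e-05), just above and just below the 2-fold line. Prim2, the large subunit of primase, was dim but above background on all 9 arrays. It read -2.97, -3.33 and -3.71 in Mock, -2.29, -2.10 and -1.80 in EBF1wt, and -1.76, -1.75 and -2.18 in EBF1ΔC, with no overlap between Mock and either group. It rose by 1.27 ± 0.21 in EBF1wt (2.42-fold, adjusted p = 0.000878) and 1.44 ± 0.21 in EBF1ΔC (2.72-fold, adjusted p = 0.000483), and its SE was the widest among members other than Rfc5.

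Their partners differed less. Prim1, the catalytic subunit of primase, gave 0.14 in EBF1wt, where normexp (0.22), the authors' values (0.25) and scaling to the median (0.85) called it higher, and 0.25 in EBF1ΔC (adjusted p = 0.00975), where quantile normalization ended the call (0.07). The best probe of Pola2, the second subunit of polymerase alpha, gave 0.27 and 0.04 and was not called. Pold1, the catalytic subunit of DNA polymerase delta, read 4.33, 4.24 and 4.49 in Mock, 5.31, 5.33 and 5.27 in EBF1wt, and 5.02, 4.98 and 4.86 in EBF1ΔC. The 3 groups did not overlap, with EBF1ΔC between Mock and EBF1wt. It was 0.95 ± 0.08 higher in EBF1wt (adjusted p = 3.17e-05) and 0.60 ± 0.08 in EBF1ΔC (adjusted p = 0.000391). Pole, the catalytic subunit of polymerase epsilon, gave 0.01 and 0.02, but with quantile normalization it was called lower in EBF1wt (-0.19) and with scaling to the median higher (0.72).

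The sliding clamp rose while the subunits of its loader went in different directions. Pcna read 6.13, 5.86 and 5.77 in Mock, 6.83, 6.71 and 6.72 in EBF1wt, and 6.70, 6.71 and 6.70 in EBF1ΔC. All arrays with EBF1 lay above Mock, by 0.83 ± 0.10 in EBF1wt (1.78-fold, adjusted p = 0.000157) and 0.78 ± 0.10 in EBF1ΔC (1.72-fold, adjusted p = 0.00023). Rfc3, a small subunit of the clamp loader, read 0.07, -0.11 and -0.05 in Mock, 1.26, 0.96 and 0.89 in EBF1wt, and 1.51, 1.55 and 1.19 in EBF1ΔC. It rose by 1.07 ± 0.13 in EBF1wt (2.09-fold, adjusted p = 0.000171) and 1.44 ± 0.13 in EBF1ΔC (2.72-fold, adjusted p = 3.69e-05).

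Rfc2, another small subunit, went the other way. It read 5.68, 5.72 and 5.72 in Mock, 4.89, 4.86 and 5.15 in EBF1wt, and 5.01, 5.10 and 4.78 in EBF1ΔC. All arrays with EBF1 lay below Mock, by 1.67-fold in EBF1wt (-0.74 ± 0.11, adjusted p = 0.000438) and 1.68-fold in EBF1ΔC (-0.74 ± 0.11, adjusted p = 0.00046), and its second probe was lower too (-0.65 and -0.50), but with scaling to the median the differences were -0.04 and -0.20 and neither was called. Rfc4 was higher in EBF1wt (0.46, adjusted p = 0.00387), a call lost with normexp (0.20) and with the authors' values (0.21), and gave 0.20 in EBF1ΔC, not called. Rfc5 rested on 1 spot per array, and on EBF1wt replicate 3 that spot read -7.16, against 4.03 to 4.29 on the other 8 arrays, without an outlier mark from the scanner software. With it the difference of EBF1wt from Mock was -3.69 and not called, and without it 0.10, also not called.

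The enzymes that join Okazaki fragments were modestly higher. Lig1, DNA ligase I, was higher by 0.51 and 0.41, and Fen1, the flap endonuclease, by 0.25 and 0.29. Rpa2, a subunit of the single-strand binding protein RPA, read 2.17, 1.95 and 1.94 in Mock, 2.59, 2.40 and 2.62 in EBF1wt, and 2.73, 2.62 and 2.37 in EBF1ΔC. It was higher by 0.51 ± 0.12 (adjusted p = 0.00448) and 0.55 ± 0.12 (1.46-fold, adjusted p = 0.0034), without overlap with Mock. Rpa1, its large partner, gave -0.08 and 0.02 and was not called, but was called higher in EBF1wt with scaling to the median (0.63). The call of Fen1 in EBF1wt ended when Mock replicate 2 (0.27) or 3 (0.19), EBF1wt replicate 1 (0.17) or EBF1ΔC replicate 1 or 2 (0.25) was left out, with the 2 groups fitted alone (0.25), without the filter on dim probes (0.25), and with normexp (0.10), quantile normalization (0.04) or the authors' values (0.09). In EBF1ΔC it was lost without Mock replicate 3 (0.23) or EBF1ΔC replicate 1 (0.28) or 2 (0.29), without that filter (0.29), and with the same 3 normalizations (0.07, 0.10 and 0.05).

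Of the enzymes of deoxynucleotide supply, Rrm1, Tk1 and Tyms were higher. Tyms, thymidylate synthase, read 3.55, 3.60 and 3.42 in Mock, 4.42, 4.40 and 4.31 in EBF1wt, and 4.48, 4.71 and 4.53 in EBF1ΔC. The 3 groups did not overlap. It was 0.85 ± 0.09 higher in EBF1wt (1.81-fold, adjusted p = 7.14e-05) and 1.05 ± 0.09 in EBF1ΔC (2.07-fold, adjusted p = 2.61e-05). Rrm1, the large subunit of ribonucleotide reductase, was higher by 0.56 and 0.51, whereas Rrm2, its S-phase small subunit, gave 0.05 and 0.24 and was not called, and was called lower in EBF1wt with normexp (-0.24) and with the authors' values (-0.24) but higher with scaling to the median (0.76). In EBF1ΔC, Rrm2 was called higher with array weights (0.30), trended moderation (0.24), scaling to the median (0.79), and without Mock replicate 1 (0.32) or EBF1ΔC replicate 3 (0.31). Tk1, thymidine kinase, was higher by 0.47 and 0.51.

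Among the E2F genes the 2 atypical repressors rose most. E2f8 read 1.24, 1.05 and 1.07 in Mock, 2.61, 2.63 and 2.67 in EBF1wt, and 2.59, 2.46 and 2.26 in EBF1ΔC. Its replicates lay close together and far from Mock. It rose by 1.52 ± 0.10 in EBF1wt (2.87-fold, adjusted p = 6.14e-06) and 1.32 ± 0.10 in EBF1ΔC (2.50-fold, adjusted p = 1.42e-05), the widest difference of any member in EBF1wt apart from the uncalled Rfc5 value. E2f7 read 0.63, 0.54 and 0.37 in Mock, 1.28, 1.41 and 1.39 in EBF1wt, and 1.25, 1.36 and 1.02 in EBF1ΔC, and was 0.85 ± 0.11 (adjusted p = 0.00022) and 0.70 ± 0.11 (adjusted p = 0.000661) higher.

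The activator E2F genes did not move together. E2f2 was higher by 0.55 and 0.42, a call lost in EBF1ΔC with quantile normalization (0.21). E2f1 gave 0.20 in EBF1wt, not called, and 0.57 in EBF1ΔC (adjusted p = 0.0159), where replicate 3 (-0.14) lay well below replicates 1 (0.55) and 2 (0.41). The E2f1 call was lost without EBF1ΔC replicate 1 (0.43) or 2 (0.50), and a second E2f1 probe was called in neither comparison. With scaling to the median E2f1 was called higher in EBF1wt (0.91). E2f3 read 1.97, 2.09 and 1.87 in Mock, 1.53, 1.70 and 1.56 in EBF1wt, and 1.52, 1.62 and 1.48 in EBF1ΔC. It was lower, at -0.38 ± 0.09 (adjusted p = 0.00463) and -0.44 ± 0.09 (adjusted p = 0.00235), and all 3 of its kept probes were called lower in both comparisons, but with scaling to the median its differences were 0.33 and 0.11.

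The best probes of the cyclin E genes were lower in EBF1wt, against the direction of most of the set. Ccne1 read 3.55, 3.51 and 3.48 in Mock, 3.21, 2.84 and 3.21 in EBF1wt, and 3.35, 3.25 and 3.10 in EBF1ΔC. No array with EBF1 reached a Mock array. Ccne1 was lower in EBF1wt (-0.43 ± 0.12, 1.35-fold, adjusted p = 0.0107), though with scaling to the median the difference was 0.28. It passed no threshold in EBF1ΔC (-0.28, adjusted p = 0.0604). The call came there with normexp (-0.61), quantile normalization (-0.46), the authors' values (-0.62) and array weights (-0.24). It also came with trended moderation, with the 2 groups fitted alone and without EBF1wt replicate 2 (-0.28 each). A second Ccne1 probe was called in neither comparison. Ccne2 read -0.57, -0.52 and -0.71 in Mock, -0.87, -0.98 and -0.87 in EBF1wt, and -0.92, -0.98 and -0.85 in EBF1ΔC. It was lower in both (-0.31 and -0.32, adjusted p = 0.00778 and 0.00724), but not with scaling to the median (0.39 and 0.23), where it was called higher in EBF1wt. The Ccne2 calls were also lost with normexp (-0.17 in EBF1wt and -0.16 in EBF1ΔC), with the authors' values (-0.17 and -0.18) and with the mean of its probes (-0.16 and -0.14), and a second Ccne2 probe gave -0.01 and 0.03.

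**Figure D3:**
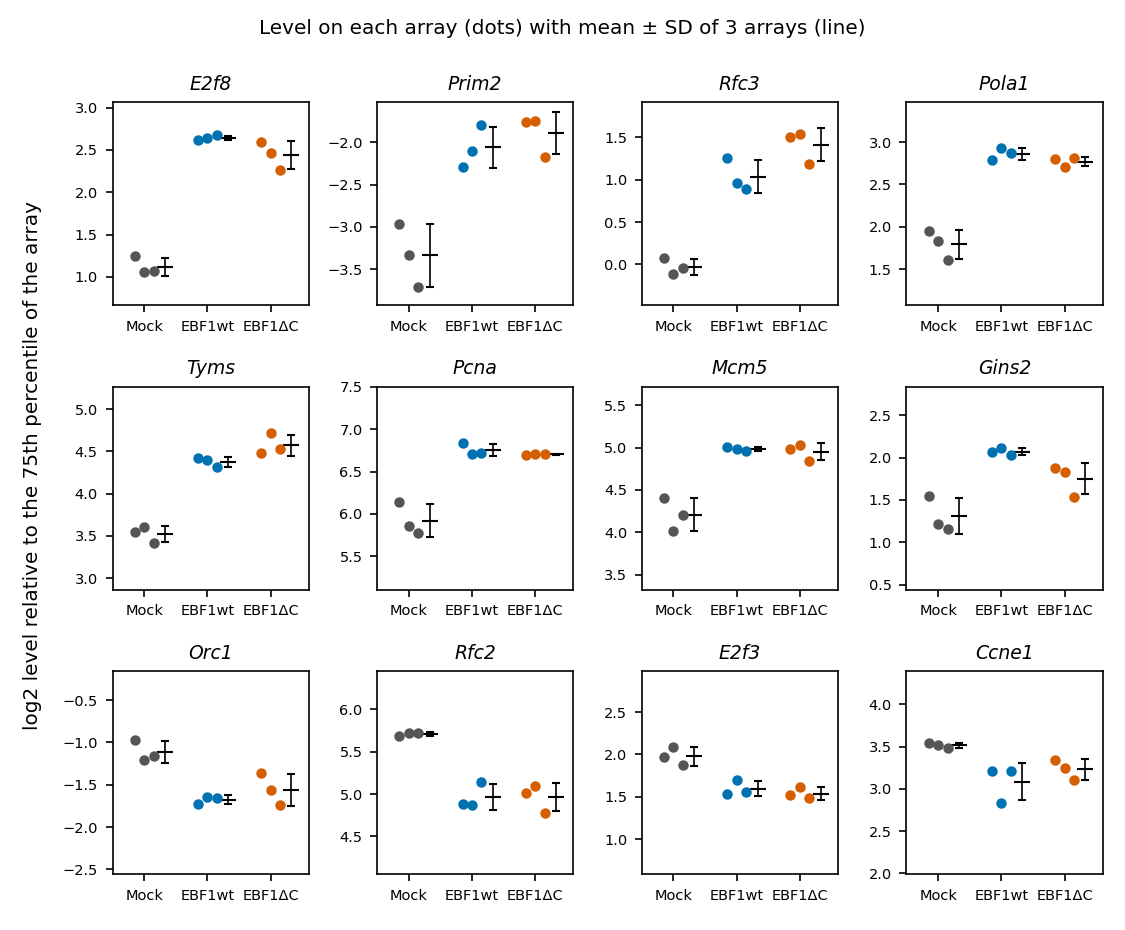
Dots give the log2 level, relative to the 75th percentile of the array, of 12 genes on each array, and lines give mean ± SD of 3 arrays; all panels span the same range on the vertical axis. E2f8, Prim2, Rfc3, Pola1, Tyms, Pcna, Mcm5 and Gins2 are higher in both groups with EBF1, and Orc1, Rfc2, E2f3 and Ccne1 lower, with 1 EBF1ΔC array of Gins2 within the Mock range.

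Different probes of 1 gene did not always tell the same story. Tyms and E2f7 each had a probe called in the opposite direction to the probe that stood for the gene, and Pola2, named here after its values were seen, had a probe called lower while its best probe was not called. For Tyms the sequences show how the 3 probes relate; positions are those of the files (build mm9), on the minus strand, and each probe has 60 bases.

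Tyms RefSeq probe with the highest signal, chr5:30387605-30387664: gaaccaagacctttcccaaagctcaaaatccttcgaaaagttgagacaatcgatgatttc
Tyms RefSeq probe across a splice junction, chr5:30387625-30388518: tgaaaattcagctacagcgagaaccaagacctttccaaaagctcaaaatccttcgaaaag
Tyms probe for a GenBank record, chr5:30387873-30387932: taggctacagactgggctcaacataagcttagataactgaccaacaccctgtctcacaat

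The first 2 probes share 40 bases with 1 mismatch and are not independent readings. The second has its other 20 bases across a gap of 834 bases, from 30387665 to 30388498, and the third probe lies wholly inside that gap, so it reads sequence that the spliced mRNA leaves out there. It read -1.83, -1.33 and -1.37 in Mock, -4.38, -4.20 and -3.85 in EBF1wt, and -4.12, -3.99 and -4.18 in EBF1ΔC. It was lower by 2.63 on the log2 scale in EBF1wt (a difference of -2.63, adjusted p = 6.96e-06 over all kept probes) and by 2.58 in EBF1ΔC (-2.58, adjusted p = 7.99e-06), while the probe across the junction rose by 0.84 and 1.13.

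E2f7 showed the same pair of directions at probes far apart on chromosome 10. Its RefSeq mRNA probe lies at chr10:110224153-110224212 and its probe for an Ensembl transcript at chr10:110204765-110204824 (mm9, plus strand). The Ensembl probe read -1.98, -1.56 and -1.53 in Mock, -3.31, -3.17 and -3.09 in EBF1wt, and -3.11, -3.27 and -3.11 in EBF1ΔC, and was lower by 1.50 and 1.47 (-1.50 and -1.47, adjusted p = 2.99e-05 and 3.48e-05). The Pola2 probe for a GenBank record, at chr19:5950346-5950405 (minus strand), was at -1.79 and -1.85 (adjusted p = 1.98e-05 and 1.75e-05). With the mean of all kept probes in place of the brightest one, E2f7 was at -0.33 and -0.39 and Pola2 at -0.76 and -0.91, called lower in both comparisons, and Tyms at -0.31, called lower, and -0.14, not called. Where E2f7 and Pola2 probes lie in exons or introns was not tested.

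**Figure D4:**
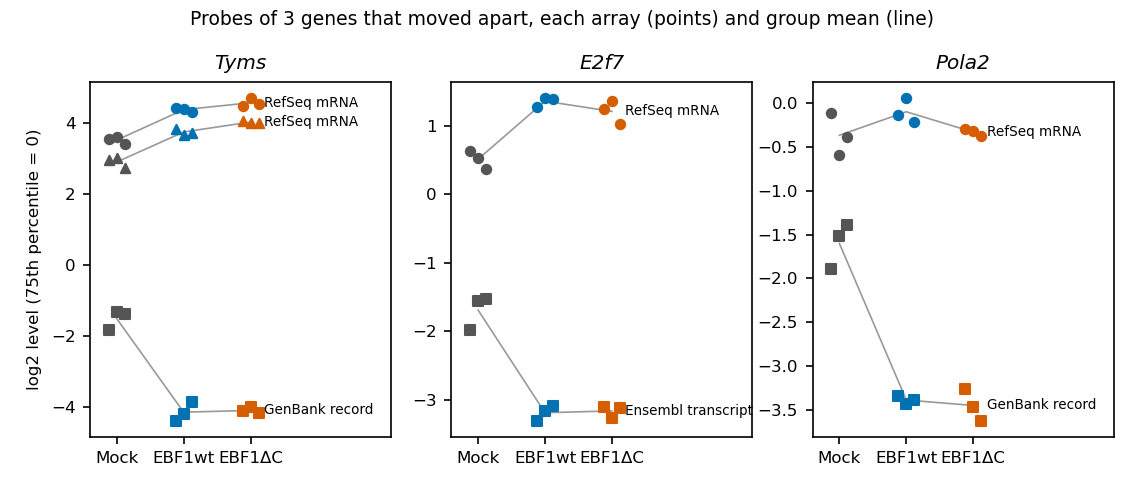
Points give the log2 level of each kept probe of Tyms, E2f7 and Pola2 on each of the 9 arrays, lines join group means, and text names the kind of record the probe was made for. Probes for RefSeq mRNAs of Tyms and E2f7 lie higher in both groups with EBF1 than in Mock, and probes for other records lie lower in all 3 genes.

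Between the 2 forms of EBF1 few genes of any kind differed, and the replication genes were near that background. In EBF1ΔC against EBF1wt, 2 of the 42 were called lower (4.76%), Orc2 and Pold1, and 0 higher. Among all genes 8.96% were called, 4.93% lower and 4.03% higher. The median difference of the members was -0.01, equal to that of all genes (-0.01). No member differed by 2-fold with a call, beside 2.69% of all genes (1.37% higher and 1.32% lower). In 6 members all EBF1ΔC arrays lay below all EBF1wt arrays and in 3 above, against 17.2% and 13.4% of all genes (30.6% together). At an unadjusted p under 0.05 there were 6, of which 5 were lower (Mcm10, Gins2, Orc2, Pold1, Rfc4) and 1 higher (Rfc3). The share of all genes under that unadjusted threshold was not counted, so these 6 are not a result about the set. The 95% interval of the difference lay within 2-fold in either direction for all 41 genes other than Rfc5, with a median half-width of 0.23. These intervals are not adjusted for the number of genes tested. Differences wider than that also went uncalled, such as 0.38 for Rfc3 and -0.32 for Gins2, so changes of that size could go unseen. For Mcm5 the interval ran from -0.27 to 0.21, for Pcna from -0.28 to 0.18, and for E2f8 from -0.43 to 0.02.

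Orc2 read 1.66, 1.62 and 1.51 in Mock, 2.11, 2.34 and 2.19 in EBF1wt, and 1.89, 1.86 and 1.88 in EBF1ΔC. The 3 groups did not overlap, with EBF1ΔC between the other two. Its difference of EBF1ΔC from Mock (0.28, adjusted p = 0.0147) lost its call without Mock replicate 3 (0.24) and with quantile normalization (0.15). The call was also lost with normexp and the authors' values, where the sign turned. The difference between the EBF1 forms was -0.34 ± 0.08 for Orc2 (adjusted p = 0.0356) and -0.35 ± 0.08 for Pold1 (adjusted p = 0.0367). These groups share 2 slides, and the within-slide differences were -0.46 and -0.30 for Orc2 and -0.47 and -0.26 for Pold1. Both calls ended with slide as a fixed block (-0.38 for Orc2, adjusted p = 0.199, and -0.36 for Pold1, adjusted p = 0.231) and with the replicate block (-0.34, adjusted p = 0.0754, and -0.35, adjusted p = 0.0860). The fit with slide as a fixed block draws on the 2 shared slides and leaves 2 residual degrees of freedom, against 6 in the main fit. The differences were no smaller in it. Orc2 also lost it without Mock replicate 2 or 3, EBF1wt replicate 2 or 3, or any EBF1ΔC replicate (-0.35 to -0.28), and Pold1 without Mock replicate 1, any EBF1wt replicate or any EBF1ΔC replicate (-0.39 to -0.31). Over the 42 genes the median within-slide difference was -0.09 on one slide and -0.03 on the other. The Ebf1 mRNA probe was itself 0.74 higher in EBF1ΔC than in EBF1wt (limma adjusted p = 0.028 over all kept probes). That call was lost with slide as a fixed block, with scaling to the median, without the filter on dim probes, and without EBF1wt replicate 2 or any EBF1ΔC replicate. The form of EBF1 and the amount of its mRNA cannot be told apart in this comparison.

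**Figure D5:**
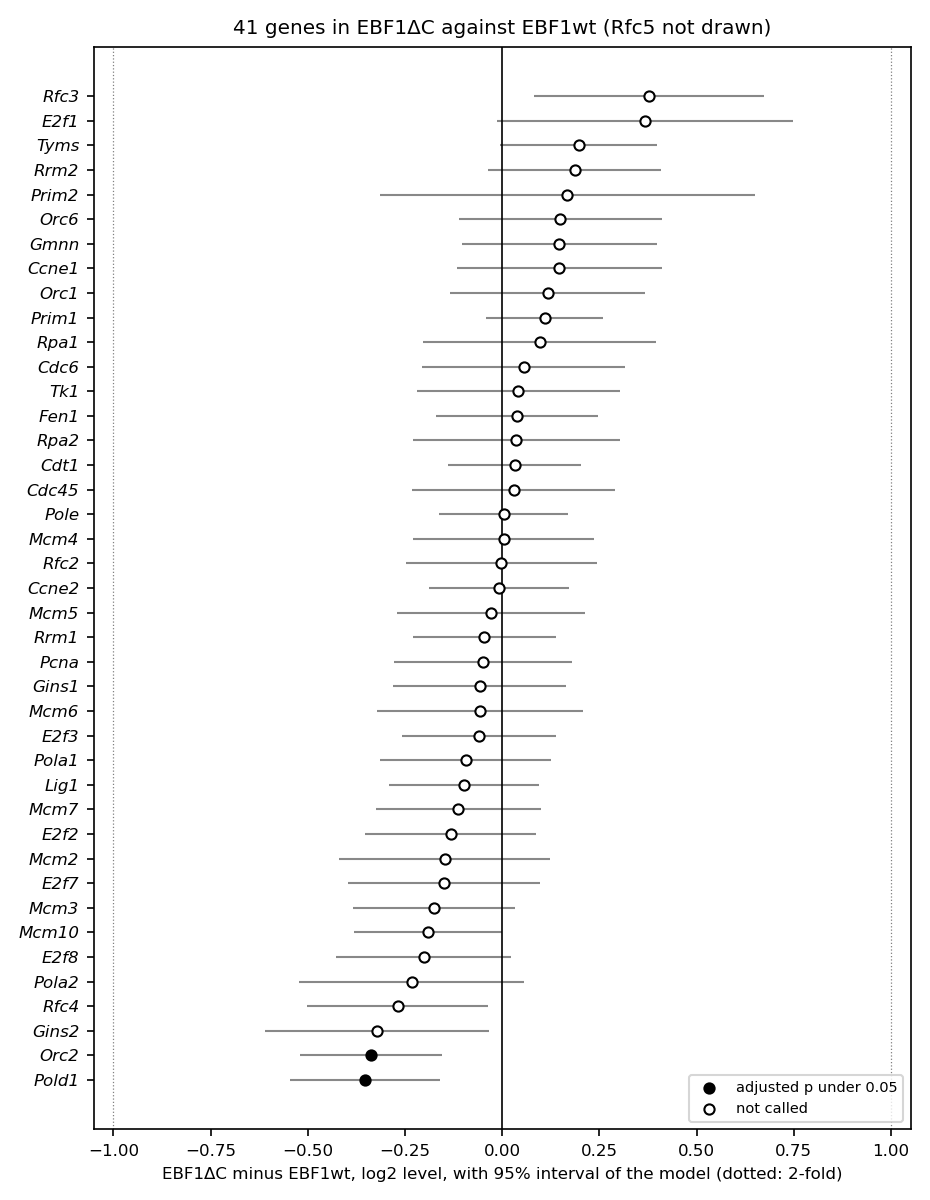
Points give EBF1ΔC minus EBF1wt in log2 level for 41 genes, sorted, with the 95% interval of the model; filled points have an adjusted p under 0.05 and dotted lines mark 2-fold. Orc2 and Pold1 are the only filled points, every interval lies inside 2-fold, and Rfc3 and E2f1 have the widest positive differences (0.38 and 0.37).

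Of 51 further replication genes, 29 were higher and 3 lower in EBF1wt than in Mock (56.9% and 5.88%, beside 39.4% and 26.9% of all genes; median difference 0.32, beside 0.12). In EBF1ΔC 25 were higher and 4 lower (49.0% and 7.84%, beside 37.4% and 26.7%; median 0.24, beside 0.10). The 3 that changed 2-fold were all higher: Rrm2b, the ribonucleotide reductase subunit that p53 induces, by 1.64 and 1.95, Dck, deoxycytidine kinase, by 1.36 and 1.44, and Dscc1, part of a clamp loader for sister chromatid cohesion, by 1.1004 and 1.19. Rrm2b read -3.36, -3.68 and -3.71 in Mock, -1.88, -2.04 and -1.91 in EBF1wt, and -1.63, -1.47 and -1.79 in EBF1ΔC. Between the EBF1 forms, Topbp1 was higher in EBF1ΔC (0.33), and Pold4, a small subunit of polymerase delta, and Rnaseh2a were lower (-0.86 and -0.54, adjusted p = 0.004 and 0.00749); these 3 were not recomputed under the alternatives.

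Most of 24 mitosis genes were higher than in Mock. In EBF1wt 20 were higher and 0 lower (83.3% and 0%, beside 39.4% and 26.9% of all genes; median 0.54), and in EBF1ΔC 19 were higher and 1 lower (79.2% and 4.17%, beside 37.4% and 26.7%; median 0.50). Ndc80 and Ttk changed 2-fold in both comparisons and Nuf2 in EBF1wt. Ndc80, a kinetochore component, read 0.80, 0.80 and 0.56 in Mock, 2.45, 2.32 and 2.53 in EBF1wt, and 2.53, 2.54 and 2.53 in EBF1ΔC, a rise of 1.72 and 1.81. None of the 24 was called between the EBF1 forms in limma, and the list's median there was -0.04.

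Of 13 G1 cyclins and cell cycle inhibitors, 4 were higher and 4 lower in EBF1wt (30.8% each, beside 39.4% and 26.9% of all genes), and 5 higher and 2 lower in EBF1ΔC (38.5% and 15.4%, beside 37.4% and 26.7%), shares near the background. Ccnd3, the D-type cyclin that pro-B and pre-B cells rely on, rose by 2.07 and 2.21, and Ccnd2 was lower (-1.82 and -1.53). Ccnd1 was lower in EBF1wt (-1.71) and 1.31 higher in EBF1ΔC than in EBF1wt (adjusted p = 0.00514), a call lost with slide as a fixed block (1.45). Cdkn1a, the p53-induced inhibitor p21, rose by 1.93 and 1.64. Of 12 tested p53 targets, 8 were higher and 1 lower in EBF1wt (66.7% and 8.33%, beside 39.4% and 26.9% of all genes), and 6 higher and 3 lower in EBF1ΔC (50.0% and 25.0%, beside 37.4% and 26.7%). Among them were Gtse1 (1.45 and 1.24) and Trp53inp1 (1.00 and 1.48) higher and Fas (-1.16 and -0.88) lower; Fas lost its call with normexp (-0.07 and -0.06), with quantile normalization (-0.46 and -0.32), with scaling to the median (-0.46 and -0.33) and with the authors' values (-0.08 and -0.05), and in EBF1ΔC without Mock replicate 1 (-0.85) or 2 (-0.86) or EBF1ΔC replicate 3 (-0.69).

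Markers of the labelled cell type and of others were read on the same arrays. All 11 pro-B markers were above background on all arrays of every group, and their summed level, in units of the 75th percentile of the array, was 301.1 to 313.2 in Mock, 908.3 to 1003 in EBF1wt and 928.9 to 969.9 in EBF1ΔC. A sum follows its brightest probes and can hide markers that fell. Of the 11, 9 were called higher and 0 lower in EBF1wt (81.8% higher, beside 39.4% of all genes). In EBF1ΔC 10 were higher and 0 lower (90.9%, beside 37.4%). The 1 marker with a negative difference in EBF1wt (-0.62) was not called, but all its EBF1wt arrays lay below Mock. The summed level of 5 erythroid markers was 345.1 to 406.0 in Mock, 3.29 to 5.45 in EBF1wt and 2.41 to 5.33 in EBF1ΔC. Alas2 was not above background in any group, Klf1 not in Mock, and Hba-a1 and Epor not in EBF1wt. For 10 T and NK cell markers the sum was 5.44 to 6.27, 2.78 to 5.56 and 9.79 to 11.5 in the same order. Of the 5 that passed the filter, 0 were higher and 2 lower in EBF1wt (0% and 40%, beside 39.4% and 26.9% of all genes). In EBF1ΔC 2 of these were higher and 2 lower (40% each, beside 37.4% and 26.7%). Cd4, Cd8a, Gata3 and Tcf7 were not above background in any group. Cd3g and Nkg7 were above it only in Mock, and Cd3d was not above it in EBF1wt. For 8 myeloid markers the sum was 0.41 to 0.55, 0.50 to 2.73 and 7.93 to 15.5. Mpo, Elane, Adgre1 and Csf3r were not above background in any group. Itgam and Csf1r were above it only in Mock, and Cd14 was not above it in EBF1wt. Only 1 of the 8 passed the filter on dim probes, and it was higher than in Mock (2.06 and 5.16). For 6 stromal markers the sum was at most 0.21 on any array. The part of these other cell types in the differences from Mock was not tested.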

How the data were processed

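Total RNA of 9 samples was read on 1-colour Agilent arrays. The values used are intensity as processed by Agilent Feature Extraction (version 10.5.1.1 per the file headers, 9.1 per the submitters' processing notes), background-subtracted per the file headers. The authors also deposited log2 values whose normalization is not stated. They correlated with quantile-normalized log2 signal at 0.9955 or more across probes, which are not independent replicates.

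Each array's log2 intensity was taken relative to its 75th percentile over non-control spots (384.0 to 507.7 intensity units). Spots marked as outliers were left out (73 to 163 per array), a probe was kept if well above background on all 3 arrays of a group (22357 probes), and the probe with the highest mean stood for its gene. In R 4.3.3, limma 3.58.1 with statmod 1.5.0 fitted a mean for each group over 9 arrays, with 6 residual degrees of freedom, two-sided moderated tests and Benjamini-Hochberg adjustment over 12000 genes. The scripts were tested on simulated data. The number of arrays limits the precision. No pair of arrays held identical values, and replicates of a group correlated at 0.9875 to 0.9963 across the 12000 genes. Alternatives were other background corrections, scalings, filters, probe rules, thresholds, blocks, weights and leaving out each array.

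Genes are given by array if they changed by 2-fold with a call, if they differed most in their role group, if probes were called in opposite directions, or if they are Pcna, Mcm2 or Ccne1. Of other lists, genes called with 2-fold are named, at most 4 a list, with Ebf1; Topbp1, Pold4 and Rnaseh2a, Cdc6, Orc2 and Pold1 and the lower members were named after their values were seen. The members and lists were chosen with earlier results of these data known. Over all probes, 27479 were named through their RefSeq accession, 5478 by symbol, 679 by synonym and 1142 by the file's own name, and 6396 had no gene name. A further marker gene is not reported here.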

Additional observations from a re-analysis of the deposited data

How the results depend on the processing

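Of the 26 members higher in EBF1wt than in Mock, 18 kept their call under all 23 alternatives, and 15 of the 27 higher in EBF1ΔC did; of the lower members 0 did, because scaling to the median shifts all genes up alike. Rfc2 and E2f3 kept their lower calls in both comparisons under every other alternative, and with that scaling stayed below the all-gene medians of 0.82 and 0.65 (Rfc2 -0.04 and -0.20). Members lower than Mock numbered 0 with scaling to the median in both comparisons. Members with 2-fold changes in EBF1wt numbered 2 with normexp and with the authors' values and 25 with scaling to the median, and 18 in EBF1ΔC with that scaling. The share of all genes at 2-fold was not counted under any alternative, so these numbers do not set the members against the background. The median difference in EBF1wt was 0.23 with normexp, 0.28 with quantile normalization, 0.26 with the authors' values and 1.19 with scaling to the median; in EBF1ΔC it was 0.21, 0.18, 0.21 and 0.95 in the same order, and between the EBF1 forms -0.16 with scaling to the median. With every probe tested, 13341 and 12921 features were called in the Mock comparisons, from more features tested. Between the EBF1 forms, members called lower numbered 0 with normexp, scaling to the median, no filter, an adjusted p under 0.01, the 2 groups fitted alone, slide as a fixed block or the replicate block, and 1 with quantile normalization, every probe tested or the authors' values, which also called 1 higher (Tyms, 0.31). All genes called there numbered 507 with scaling to the median, 432 with no filter, 321 at an adjusted p under 0.01, 475 with the 2 groups alone, 138 with slide as a fixed block and 669 with the replicate block. Leaving out 1 array at a time gave 25 to 27 higher, 5 lower, 3 to 4 with 2-fold, medians of 0.45 to 0.54 and 7001 to 8045 called genes in EBF1wt; 23 to 28, 4 to 5, 3 to 5, 0.33 to 0.44 and 6639 to 7929 in EBF1ΔC; and 0 to 1 higher, 0 to 1 lower, 0 with 2-fold, -0.05 to 0.04 and 506 to 918 between the EBF1 forms. Genes called there, 1075 in all, numbered 506 without EBF1ΔC replicate 2 and 535 without EBF1ΔC replicate 1. Without EBF1ΔC replicate 3 E2f1 was called higher (0.58).

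Directions that turned were Orc2 in EBF1ΔC with normexp (-0.020) and with the authors' values (-0.0084), Cdt1 there with normexp (-0.12), with quantile normalization (-0.010) and with the authors' values (-0.085), and Ebf1 with the mean of its probes (-1.002 in EBF1wt, -0.76 in EBF1ΔC), whose cDNA clone probe was above background in Mock only. With scaling to the median, differences from Mock in EBF1wt were 0.14 for Orc1, 0.57 for Orc6, 0.52 for Cdc6, 0.63 for Rpa1, 0.33 for E2f3, 0.28 for Ccne1 and 0.39 for Ccne2, and in EBF1ΔC 0.10 for Orc1, 0.11 for E2f3 and 0.23 for Ccne2. With the mean of probes, Pola2, Tyms and E2f7 were at -0.76, -0.31 and -0.33 in EBF1wt and -0.91, -0.14 and -0.39 in EBF1ΔC. Rrm2 in EBF1wt was -0.24 with normexp and with the authors' values, Pole -0.19 with quantile normalization, and Mcm3 in EBF1ΔC -0.028 with normexp and -0.031 with the authors' values. Setting the Rfc5 value of EBF1wt replicate 3 as missing, chosen after seeing the data, gave 0.10 against Mock. The cause of these changes was not tested.

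The labels do not state whether replicate numbers pair the samples. Deviations of same-numbered arrays from their group means correlated at -0.17 to 0.12, and those of different-numbered arrays at -0.13 to 0.19. With 3 arrays a group, these correlations cannot settle whether samples were paired. With the replicate block, members called in EBF1wt stayed at 26 higher and 5 lower, and in EBF1ΔC were 26 and 4, where Cdt1 lost its call (0.21).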
